A study of Mus musculus with 2 samples.

Results

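The suppressors of cytokine signalling, the SOCS family, were examined in myeloid-derived suppressor cells (MDSCs) of the monocytic kind (M-MDSCs) taken from tumours of mice fed a normal-salt diet (NSD) or a high-salt diet (HSD). The family was taken as 8 genes, Socs1 to Socs7 and Cish, and every probe aimed at a RefSeq transcript of one of them was used. These were 11 of the 39413 probes with a value on both arrays and 8 of the 20653 genes that could be named. Female mice of the strain labelled BABL/c were given 1000000 cells of 4T1, a mouse mammary carcinoma line, under the skin after a day without food. For 16 days they then ate chow with 0.4% NaCl and drank tap water (NSD group), or ate chow with 4% NaCl and drank water with 1% NaCl (HSD group). M-MDSCs were isolated from the tumours with magnetic beads, equal cell numbers were mixed within each diet group, and the RNA was hybridised to Agilent mouse arrays. Each diet had 1 array. Since the cells of a group were pooled, the spread between mice is unknown and the diet could not be tested. In such bulk RNA, fewer cells that carry a transcript cannot be told apart from less of it per cell.

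SOCS proteins are the feedback inhibitors of cytokine receptors. Cytokines activate JAK kinases at the receptor, the kinases phosphorylate STAT transcription factors, and the STATs switch on genes that include Cish, Socs1, Socs2 and Socs3. Each SOCS protein holds an SH2 domain, which binds phosphotyrosine, and a SOCS box, which recruits elongins B and C and cullin 5 to mark bound proteins for degradation, while SOCS1 and SOCS3 also inhibit JAKs directly. In myeloid cells SOCS3 is known for restraining signals from the receptors of IL-6 and G-CSF, and SOCS1 for restraining signals from interferons.

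The DNA just upstream of the cytokine-induced members shows where STAT and interferon-response elements can lie, and is given here for the member that passed 1.5-fold with HSD and for the best-known members that did not. Sequence was at hand for 4 of the 8 genes, Socs1, Socs3, Socs4 and Cish, credited to RefSeq on GRCm38.p6. The 300-base window of each, made of 250 bases before the transcript start and the bases just after it, was searched on both strands for the STAT element TTCNNNGAA and the interferon-stimulated response element GAAANNGAAA. Capitals mark the matches. The first line is the 250 bases before the Socs3 start (chr11:117969367-117969616, minus strand), the next those of Socs1 (chr16:10785537-10785786, minus strand), and the last the first 30 transcribed bases of Cish (chr9:107296659-107296688, plus strand).
Socs3 upstream: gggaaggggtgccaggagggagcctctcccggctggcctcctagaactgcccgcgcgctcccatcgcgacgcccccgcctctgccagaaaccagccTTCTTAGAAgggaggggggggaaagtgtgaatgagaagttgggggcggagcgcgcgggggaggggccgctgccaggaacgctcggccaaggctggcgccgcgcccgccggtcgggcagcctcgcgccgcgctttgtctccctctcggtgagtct
Socs1 upstream: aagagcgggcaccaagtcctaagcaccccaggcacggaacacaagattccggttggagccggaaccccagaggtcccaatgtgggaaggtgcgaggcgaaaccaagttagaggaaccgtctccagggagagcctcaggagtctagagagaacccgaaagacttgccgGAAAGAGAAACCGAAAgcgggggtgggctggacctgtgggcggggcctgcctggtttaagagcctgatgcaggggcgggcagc
Cish start: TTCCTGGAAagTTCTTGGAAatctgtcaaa
Socs3 held 1 match to the STAT element, TTCTTAGAA, beginning 154 bases before the start. Cish held 2, TTCCTGGAA and TTCTTGGAA, beginning at transcribed bases 1 and 12. Socs1 held none of these and 2 overlapping matches to the interferon element, beginning 83 and 77 bases before the start. Socs4 held neither element in its window. Among 32851 promoter windows of the same length, 8.30% held the STAT element and 3.44% the interferon element. The matches are letters in a window, and binding of a STAT was not measured.

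Socs3 was the only member that passed 1.5-fold in either direction. Its probe read 1515 intensity units with NSD and 4177 with HSD, as processed by the scanner software. The signal was bright on both arrays, and no spot of the family was saturated. After each array was scaled to the 75th percentile of its probes, the log2 fold change of Socs3, HSD minus NSD, was 1.58, a 2.98-fold rise. The raw brightness of the spot, before any correction, was 1618 with NSD and 4030 with HSD, over local backgrounds of 16 and 19. Scaling itself adds 0.11 to every log2 fold change, since the 75th percentile stood at 252 units with NSD and at 233 with HSD. Socs3 had 1 probe printed in 1 spot per array, so its error can only be estimated. The scanner software's own error for the spots corresponds to ±0.20 on the log2 scale. An estimate from the data came from probes of like signal that were printed several times. The SD between their spots gives 0.096 for the difference of single spots on the 2 arrays, and the log2 fold change of Socs3 was 16.4 times this SD. Both errors cover the measurement of a spot and leave out the variation between mice, pools and cell preparations.

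**Figure D1:**
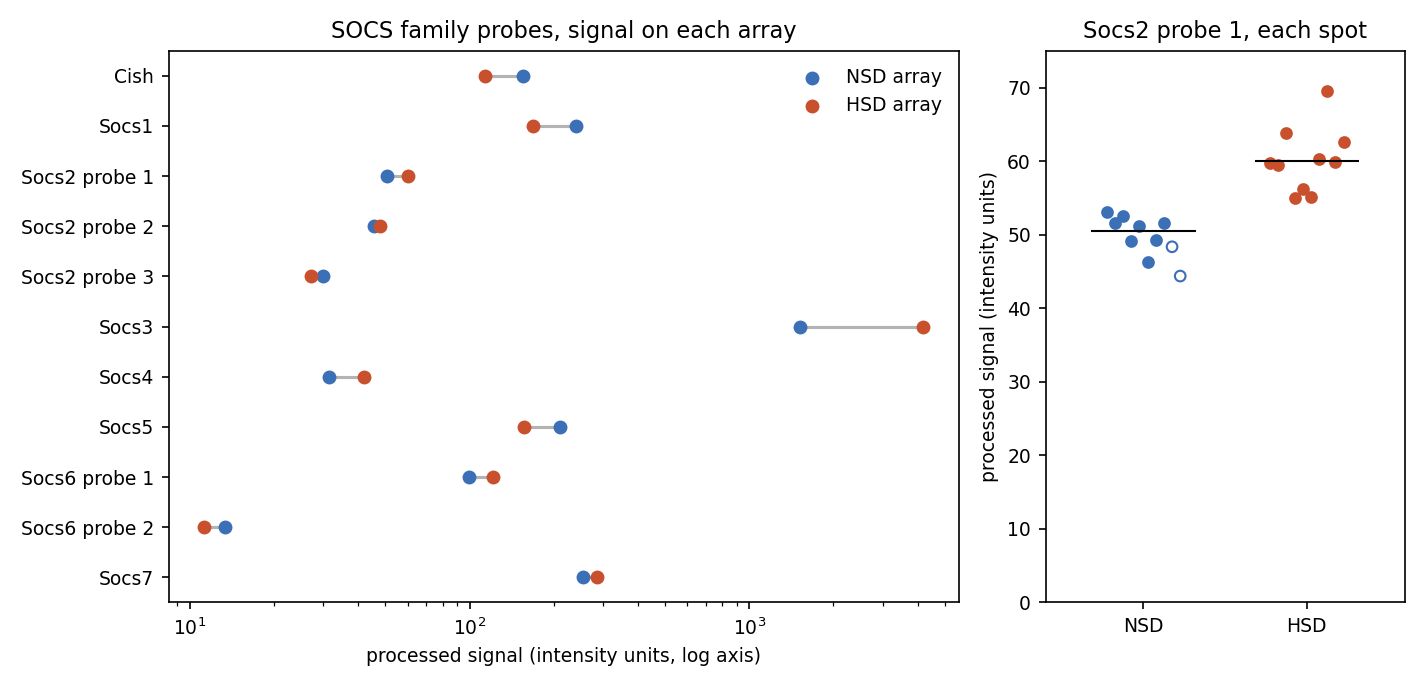
Left, processed signal in intensity units (log axis) of the 11 SOCS family probes on the NSD array (blue) and the HSD array (orange), with probes of 1 gene numbered from the brightest. Right, the signal of each spot of the brightest Socs2 probe, with lines at the geometric means and open circles for the 2 NSD spots left out as outliers. The Socs3 pair, 1515 and 4177, is far wider apart than any other.

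The share of members at least 1.5-fold higher, 1 of 8 genes, has to be read against all genes on the arrays, of which 9.86% passed 1.5-fold upwards with HSD and 10.3% passed it downwards. As a family the SOCS genes therefore passed the threshold about as often as genes in general, and none of the 8 was at least 1.5-fold lower. By probes, 1 of 11 passed, against 10.2% of all probes that were at least 1.5-fold higher. The single gene that passed lay far out in the distribution. Of 16316 genes, 147 had a larger log2 fold change than Socs3, and it was also past 2-fold higher, as were 2.62% of genes. With falls counted too, 2.56% of genes had a larger absolute log2 fold change than Socs3. By the brightest probe of each gene, the median log2 fold change over the 8 genes was 0.32, against 0.045 over all genes. Of the 8 members, 5 lay above 0 and 3 below, and of the 11 probes 6 lay above and 5 below. The family median depends on the choice of probe, since the median over probes was lower for Socs2 (0.19) and Socs6 (0.13).

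Socs1 and Cish, also induced by cytokines, lay on the other side of 0 from Socs3. Socs1, whose protein blocks JAKs and is itself induced by interferons, had a signal of 239.8 with NSD and 168.7 with HSD. Its log2 fold change was −0.39 ± 0.20 (error from the scanner software, 1 spot per array), the lowest of the family. Cish, the founding member and a target of STAT5, had signals of 154.5 and 113.7 and a log2 fold change of −0.33 ± 0.20. Both genes were lower on the HSD array by less than 1.5-fold. Of all genes, 36.0% had a larger absolute log2 fold change than Socs1 and 43.6% a larger one than Cish. Both values were more than 2 times the SD expected between single spots of like signal, but the share of all genes for which this holds was not counted.

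Socs2, which restrains signalling from the growth hormone receptor, was the member measured most often, by 3 probes and 12 spots per array. The brightest probe was printed in 10 spots, of which 8 on the NSD array and all 10 on the HSD array were kept. On the NSD array the kept spots ran from 46.3 to 53.1 intensity units with a median of 51.4, and on the HSD array from 54.9 to 69.5 with a median of 59.8. The 2 NSD spots left out read 48.3 and 44.4. These spots share 1 RNA pool per array and are no replicates of the diet. The log2 fold change of this probe was 0.36, with an SD between spots of 0.065 (log2) for NSD and 0.10 for HSD. The other Socs2 probes had smaller values. The second probe had signals of 45.5 and 47.8 and a log2 fold change of 0.19, within the spot SD of 0.20 for its signal. The dimmest had signals of 29.96 and 27.0 and a log2 fold change of −0.036. The median over the 3 probes was 0.19, so Socs2 stayed below 1.5-fold however its probes were combined.

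The remaining members belong to the branch of the family with long N-terminal regions, Socs4 to Socs7, which act mainly on growth factor and insulin receptors. Socs4, one of the pair of members known for binding the EGF receptor, came closest to the threshold. Its signals of 31.5 and 42.0 gave a log2 fold change of 0.53 ± 0.21 (scanner software error), or 1.44-fold. Socs5, the other member of that pair, lay on the opposite side of 0, with signals of 210.7 and 155.8 and a log2 fold change of −0.32 ± 0.20. Socs6 and Socs7 form another pair of related sequences. Socs7 had signals of 254.8 and 284.4 and a log2 fold change of 0.27 ± 0.20. For Socs6 the probes disagreed in sign. The brighter one had signals of 99.7 and 121.2 and a log2 fold change of 0.40, and the dimmer one, at 13.4 and 11.3, had −0.13, which is less than its spot SD of 0.38. All 11 probes of the family were called well above background on both arrays. The log2 fold changes of the dimmer Socs2 probes and the dimmer Socs6 probe were within 2 times the SD expected between spots. The other 8 exceeded it. The share of all probes that do so was not counted, so these 8 cannot be said to stand out by it. The median absolute log2 fold change was 0.38 over the 8 genes and 0.28 over all genes. For comparison, the typical SD of a difference between single spots, from probes printed repeatedly, was 0.116.

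**Figure D2:**
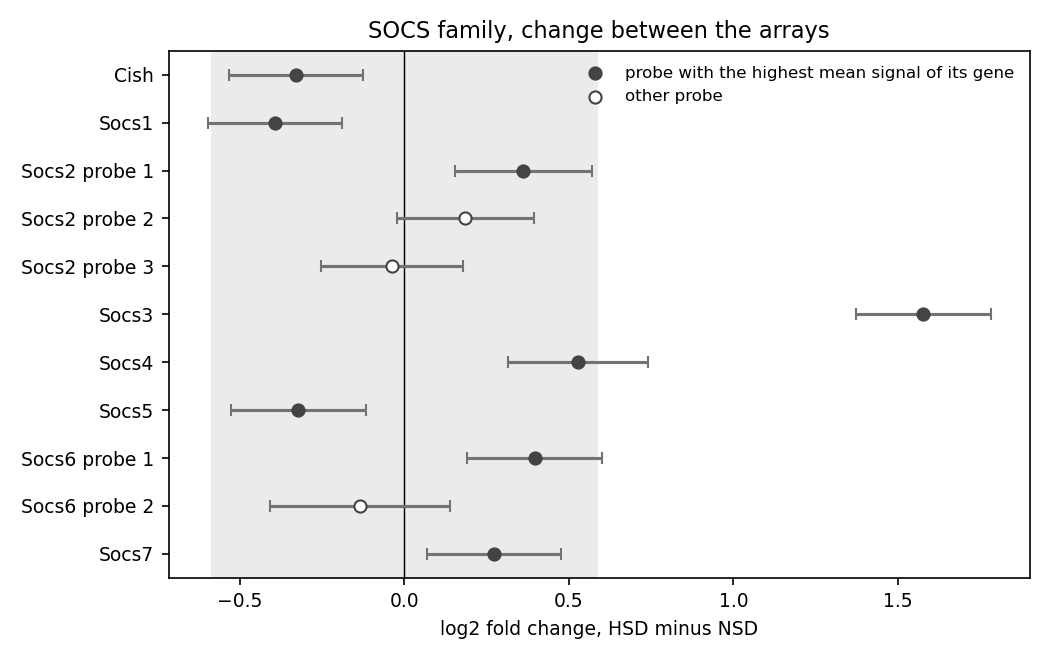
Log2 fold change, HSD minus NSD, of the 11 SOCS family probes after scaling each array to its 75th percentile, with 1 array per diet. Bars are the scanner software's error propagated to the difference, the grey band marks less than 1.5-fold, and filled circles are the probes that stand for their genes. Socs3 at 1.58 is the only probe outside the band, and the bars of Socs4, Socs6 and Socs1 reach its edge.

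The genes upstream and downstream of the SOCS proteins were described by lists written from general knowledge, and each gene was counted by its brightest probe. Other probes past 1.5-fold, of genes whose brightest was not, are named after their values were seen. The counts of each list have to be read against all genes, of which 9.86% were at least 1.5-fold higher and 10.3% lower. Of 30 genes of cytokines that signal through JAKs, 17 could be measured, and 5 were at least 1.5-fold higher and none lower. Csf3 and Ctf1 are among these only through their HSD signal. Lif and Ifnb1 were well above background with NSD only. Their log2 falls of at least 0.41 and 0.51 are bounds and were counted as below 1.5-fold. Il12a, a subunit of IL-12, had a log2 fold change of 0.68, from signals of 83.4 and 123.3. Il15 had 0.61, from 47.1 and 66.4. Il10 had 0.67 but was dim, with signals of 14.1 and 20.7. Csf3, which encodes G-CSF, was at least 3.21-fold higher, with an NSD signal not well above background, and Ctf1, cardiotrophin, at least 1.87-fold, likewise, both named after their values were seen. Il6 had signals of 20.7 and 25.1 and a log2 fold change of 0.39. The median of the list was 0.23.

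Of 34 measured receptor genes, 2 were at least 1.5-fold higher and 6 lower, with a median of 0.16. Il6st encodes gp130, the receptor chain on which SOCS3 acts, and had signals of 50.9 and 24.0 (log2 fold change −0.97). Il7r fell by 1.80 and Il15ra by 1.17 on the log2 scale, and the second Il15ra probe had −0.83. Il2rb (0.89) and Osmr (0.64) were the higher receptors, both dim. For Lifr, the receptor of LIF, the probe brightest over both arrays had signals of 27.9 and 24.4 (−0.078), whereas the second had 39.3 and 16.1 (−1.17), and the dimmest, not well above background with HSD, was lower by a bound of −0.65 on the log2 scale. The receptor of G-CSF, Csf3r, also bound by SOCS3, had signals of 53938 and 54723 and a log2 fold change of 0.14. Among the kinases, Jak1 had 0.34, Jak2 0.25, Jak3 −0.012 and Tyk2 −0.27, all below 1.5-fold. The other Jak3 probe, of like signal, had 30.5 and 20.8 and a log2 fold change of −0.44.

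Of 6 STAT genes described, 1 was at least 1.5-fold lower and none higher, with a median of 0.032. Stat2, which acts in signalling from type I interferons, was the lower one, with signals of 4127 and 2081 and a log2 fold change of −0.87. Stat3, the factor known for inducing Socs3, had 2 probes, with log2 fold changes of 0.22 and 0.30, both below 1.5-fold. Stat5a had −0.53 and Stat4 0.29. The probes of Stat5b disagreed, with 0.094 for the brighter and −0.41 for the dimmer, and Stat6 had −0.031 for the brightest of its 3 probes. The arrays measure transcripts and give no phosphorylation of a STAT.

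Genes known to be switched on by STAT3 or STAT5 were listed separately. Of 16 measured genes listed for STAT3, 3 were at least 1.5-fold higher and 2 lower, with a median of 0.17. Saa3, an acute-phase gene, had a log2 fold change of 1.21, Lrg1 0.74 and Nfil3 0.61. Fos (−0.95) and Junb (−0.68) were the lower ones. Of 10 measured genes listed for STAT5, 2 were higher and none lower, Id1 and Pim2 (each 0.96), with a median of 0.33. Id1 had signals of 949.7 and 1707, whereas Pim2 was dim, at 10.8 and 19.4. Il2ra, Mcl1, Myc, Osm and Pim1 stand in more than 1 list.

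By their brightest probes, none of 9 genes for the ligase that SOCS proteins join was past 1.5-fold in either direction, among them Elob (0.16), Eloc (0.32) and Cul5 (−0.33), which encode elongin B, elongin C and cullin 5. Dimmer probes of other genes of this list did pass it. Rnf7, which encodes the RING subunit that works with cullin 5, had −0.25 at its brightest probe and −0.35, −1.54 and −0.30 at the others, the −1.54 from signals of 905 and 288.4. Ube2f, a NEDD8-conjugating enzyme, had 0.56 at its brightest probe and 0.75 at the other, from signals of 114.4 and 177.7. Of 17 measured genes of other SOCS-box proteins, 1 was at least 1.5-fold higher and 2 lower, with a median of −0.030. The higher one was Asb9, at least 1.63-fold with an NSD signal not well above background, named after its value was seen. Spsb4 fell by 1.87 on the log2 scale, and Wsb2 by 1.05, although its second probe had −0.14. By the brightest probes, none of 15 growth factor and insulin signalling genes whose proteins SOCS members bind was past 1.5-fold (median 0.14). The dimmer Egfr probe, not well above background with NSD, had a log2 fold change of at least 1.07, against 0.16 at the brighter one.

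Inhibitors of JAK-STAT signalling outside the SOCS family gave 2 genes at least 1.5-fold higher and 1 lower of 12, with a median of 0.33. Pias1 had a log2 fold change of 0.73 at its brightest probe and of 0.17 and 0.39 at the others. Cbl, a ubiquitin ligase, had 0.72. Usp18, which restrains the interferon receptor and is itself interferon-induced, had signals of 2220 and 358.5 and a log2 fold change of −2.52. The largest change of an inhibitor outside the family was thus opposite in sign to that of Socs3.

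**Figure D3:**
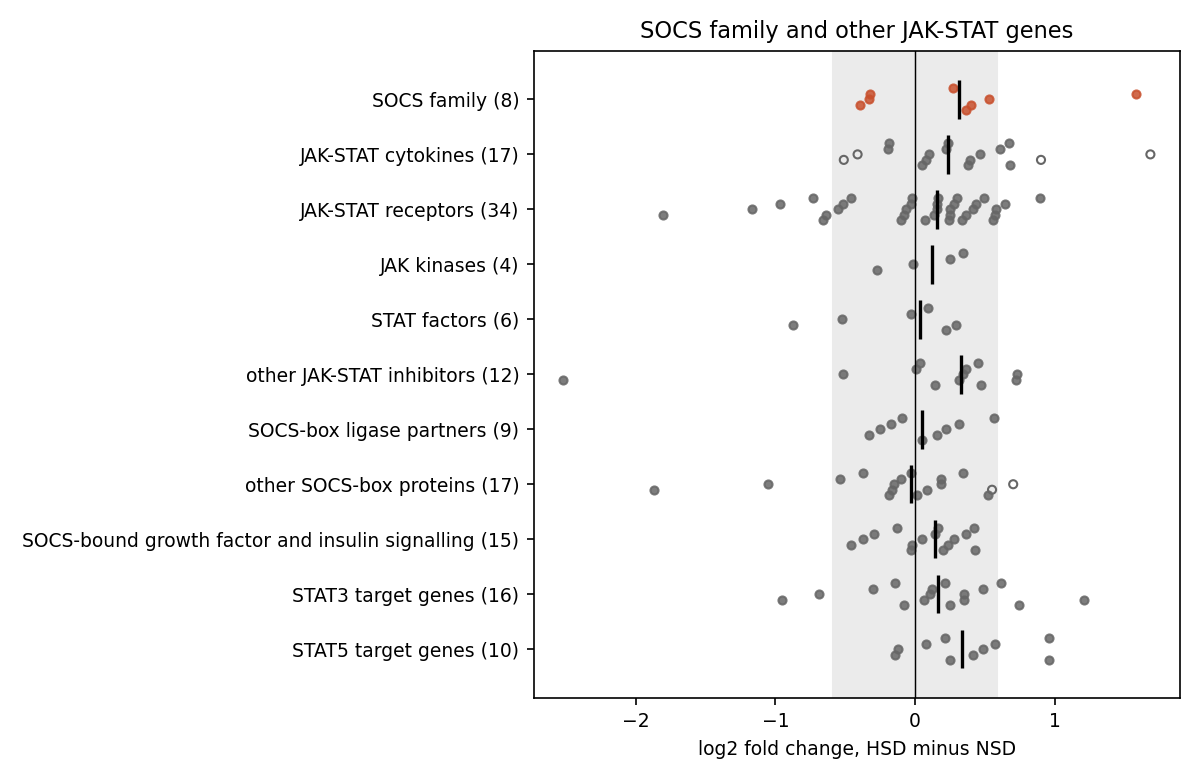
Log2 fold change, HSD minus NSD, of each measured gene (1 point per gene, number of genes in brackets) in the SOCS family and in lists of JAK-STAT genes, with 1 array per diet. Vertical bars are medians, open points are lower bounds and the grey band marks less than 1.5-fold. In the SOCS family a single gene, Socs3 at 1.58, lies outside the band, and the lowest point of all is Usp18 at −2.52.

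Both arrays had 71.9% to 72.4% of probes well above background. The labelled cell type was checked on marker genes. Itgam and Ly6c1, which define M-MDSCs, were bright on both arrays, with log2 fold changes of 0.09 and 0.018, and Arg1 was not well above background on either. Of 8 measured genes of the M-MDSC and monocyte list, 2 were at least 1.5-fold higher, Nos2 (3.13, from signals of 22.8 and 184.5) and Cd14 (0.82), and 1 was lower, Ccr2 (−0.78), with summed signals of 211363 and 199788. Genes of neutrophil granules were also bright on both, with signals of 61817 and 59920 for Camp, and Ly6g found no match among the named probes. All 5 markers of B cells were measured, with signals of 3519 and 4080 for Cd79b. Markers of macrophages moved between the arrays. Of 7 measured, 5 were at least 1.5-fold lower on the HSD array and none higher, and C1qa was not well above background with HSD. The summed signal of the 7 was 14188 units with NSD and 8678 with HSD. Apoe (7119 and 4337) and Adgre1 (6723 and 4252, below 1.5-fold) made up most of these sums, so they say little of the other macrophage markers. Of 7 measured neutrophil markers, 1 was at least 1.5-fold lower and none higher, with summed signals of 175654 and 171307. Markers of 4T1 cells were dim, with summed signals of 90.1 and 96.2 over 5 genes, of which 3 were at least 1.5-fold higher. Of the measured markers of dendritic cells 1 of 5 was higher and 1 lower (summed signals 13809 and 13300). Siglech alone made up 13705 and 13214 of these sums, so they say little of the other dendritic markers. Of T and NK cells 1 of 7 was lower (2530 and 2994), and of fibroblasts 2 of 4 (140.3 and 106.3). Of erythroid cells 1 of 3 was lower (11087 and 11417), and of endothelial cells none of 4 passed 1.5-fold (249.3 and 275). The part of these cell types in the SOCS family values was not tested.

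The values of the family were set against other ways of processing the arrays. Under 10 alternatives all 8 genes kept their sign and their side of 1.5-fold. Some of these settings leave most members unmoved by construction, as set out at the end. Socs3 lay between 1.40 and 1.58. The lowest value came from limma's normexp background correction, under which the log2 fold change was 0.29 for Socs4, −0.14 for Socs5 and 0.18 for Socs2.

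**Figure D4:**
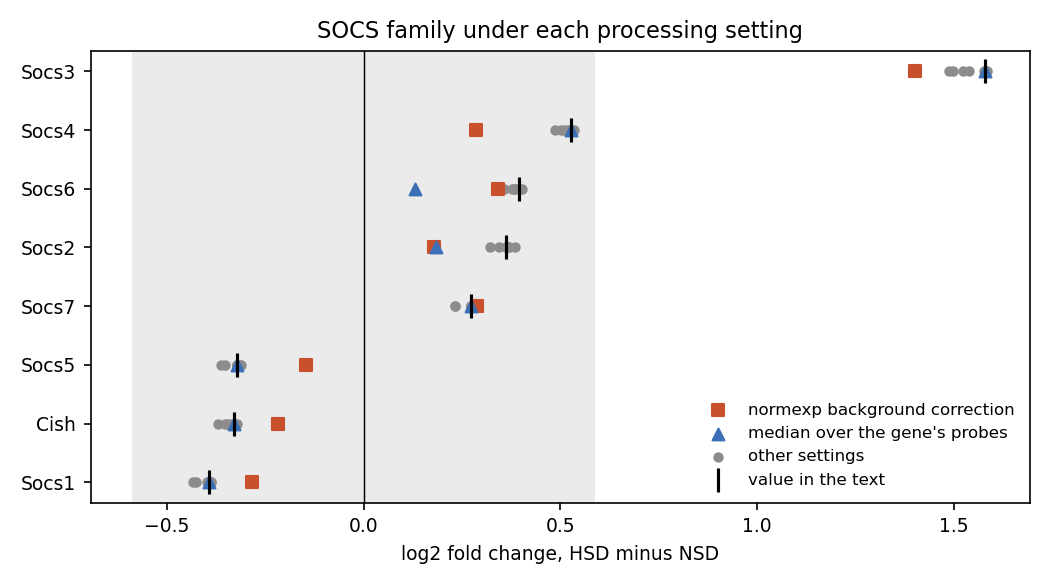
Log2 fold change, HSD minus NSD, of each SOCS family gene under the setting of the text (black bar) and 10 alternatives, with 1 array per diet. The grey band marks less than 1.5-fold. Socs3 stays outside the band at 1.40 or above, and the other 7 genes stay inside it.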

How the data were processed

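M-MDSC RNA was measured on 1-colour Agilent 4 × 44 k mouse arrays, with 1 array of pooled cells per diet. The authors deposited each array's scanner output, whose processed signals, their error estimates, and the median brightness of spots and local background are intensity values from Feature Extraction 11.0.1.1. The processed signal had been corrected for background and spatial trends, not between arrays. The authors also deposited normalized log2 values (GeneSpring), whose method and floor are not given in the sources used here. They served as an alternative.

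Control and outlier spots were left out, log2 signals averaged per probe, and the 75th percentile of all non-control probes subtracted per array. Probes were named by matching RefSeq transcripts, without versions, to GRCm38.p6, which named 27223 of 39413 probes (69.1%). Since the array was designed on mm9, probe coordinates are left out. The probe with the highest mean log2 signal stood for its gene. A probe was well above background if at least 50% of its spots were. If only 1 array met this, a minimum fold was set on the other array from the probe's own signal there or the lowest signal well above background, whichever was greater. Both arrays lay on 1 slide. With 1 array per diet no test was run, and precision is limited by the number of arrays.

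Spot SDs came from probes printed repeatedly with a log2 signal within 0.5 of the member's. Motifs were counted in RefSeq promoter windows. The members and lists were chosen with earlier results of these data known. A gene and a list that needs it are not reported here. The text names all members with every probe, all JAK and STAT genes of the lists, and of each other list up to 3 rises and 3 falls past 1.5-fold measured on both arrays, besides list members given as context. Simulated arrays served to test the scripts. Alternatives were normexp (offset 50, limma 3.58.1, on median signals), quantile, cyclic loess, scaling on the median or on detected probes, the deposited values, stricter or no filters, outlier spots kept, the median over probes, and 2-fold. Python 3.11.15, numpy 2.4.6, pandas 2.3.3, matplotlib 3.10.9 and R 4.3.3 were used.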

Additional observations from a re-analysis of the deposited data

How the results depend on the processing

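Each diet has 1 array, so no replicate could be left out, and no setting tells the diet from other differences between the pools. No paired analysis was possible because each group has a single sample. All 80 values of the 8 SOCS family genes under 10 alternatives kept their sign and their side of 1.5-fold, and the counts of 1 gene higher and none lower were the same under these and with a 2-fold threshold. Away from normexp, Socs3 lay between 1.49 and 1.58. The stricter filter and no filter could move none of the 8 genes, since every family probe passed the stricter one. The median over probes could move only Socs2 (0.19) and Socs6 (0.13), the members with more than 1 probe. Keeping outlier spots raised Socs2 to 0.39 and left the other members almost as in the text, with Socs3 at 1.58. For most members these settings are therefore no independent check. The dimmest Socs2 probe and the dimmer Socs6 probe, which stand for no gene, turned positive with normexp (0.081 and 0.15). Over all genes, the 1609 at least 1.5-fold higher and 1682 lower became 627 and 655 with normexp, 2903 and 2212 without a filter, and 1244 and 1991 with cyclic loess. Of 100 medians of the other lists, 97 moved by less than 0.116, the SD of a difference between single spots, which is no error of a median. The exceptions were the genes listed for STAT3 with cyclic loess (0.049), the cytokines without a filter (0.35), and the STAT factors with the median over probes (−0.13). Smaller moves still changed the sign of medians near 0. That of the STAT factors, 0.032 in the text, was −0.063 with quantile normalization and 0.038 with scaling on the median. That of the ligase genes, 0.051 by the brightest probes, was −0.028 with cyclic loess and 0.092 with normexp. The causes were not tested.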
